A study of Mus musculus with 27 samples.

Results

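The 10 circadian clock genes described here were Clock, Per1, Per2, Per3, Cry1, Nr1d1, Nr1d2, Dbp, Tef and Ciart. They were taken by gene symbol from the 21848 genes of a bulk RNA-seq table of mouse liver cells. Levels are given in TPM (transcript abundance scaled to library and gene length), as deposited, and tests were run on the deposited read counts. The table was read in 27 libraries of 9 conditions, with 3 libraries per condition.

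All cells came from adult C57BL/6 mice and carried a WT genotype label, apart from 1 library described below. Freshly isolated hepatocytes were sequenced without culture. Hepatocyte organoids (HepOrgs) are epithelial structures grown from primary hepatocytes in Matrigel, here at passage 2. They were kept for 7 days (labelled 1 week) or 14 days (2 weeks) in 1 of 2 media. HM-Wnt is the expansion medium, whose additions to the basal medium are Wnt3a and RSPO1 conditioned media, the growth factors EGF, HGF, FGF7 and FGF10, gastrin, nicotinamide, the GSK3 inhibitor CHIR9902, the TGF-beta receptor inhibitor A83-01 and the ROCK inhibitor Y-27632. MM is a minimal medium holding, on the same base, Wnt conditioned medium and the ROCK inhibitor alone. Periportal assembloids were built in MM from 10 HepOrgs, 1000 cholangiocytes and either 250 portal mesenchymal cells (homeostatic) or 2500 (fibrotic-like), and were kept for 7 days (1 week) or 18 days (2.5 weeks). The cholangiocytes carried a nuclear tdTomato reporter, and the mesenchymal cells were sorted by a PDGFRα-driven H2B-GFP reporter and SCA1. The hour of day at which any sample was collected is not given in the sources used here. Nor do they say whether the libraries of a condition came from separate animals, so p-values measure the spread between these libraries.

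The clock is a feedback loop of transcription that runs in nearly every cell of the body. CLOCK pairs with BMAL1 (gene Arntl in this table) on E-box sequences and switches on the Per and Cry genes, whose proteins return to the nucleus and block the pair. The same pair switches on Nr1d1 and Nr1d2, which encode the REV-ERB repressors of Arntl, and Dbp and Tef, PAR bZIP factors that act through D-box sequences on many liver genes. In the liver Dbp, Nr1d1 and Ciart swing widely over the day, and Per1 and Per2 also respond directly to glucocorticoids, feeding and cell stress.

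Before the results, 3 facts bear on what follows. The third library of fresh hepatocytes is titled WT but labelled MDR2-het for genotype. Counts of calls against fresh hepatocytes are therefore also given without it, and single values where a call changed. The second library of homeostatic assembloids at 1 week held at least 10 reads for 6625 genes, against 11840 to 14162 genes in the other 26 libraries, and is likewise left out in turn. Per3, another period gene, was listed at 0 in all 27 libraries, as were 3315 genes (15.2%) of the table, so 9 of the 10 genes could be tested and nothing further is said of Per3. Read totals ran from 30289364 to 65348596, with a median of 43727965.

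The labelled cell types were checked on summed TPM of marker genes. Hepatocyte markers summed to 75300 to 77100 TPM in fresh hepatocytes, 10500 to 63800 in HepOrgs and 7280 to 45500 in assembloids without the sparse library. Cholangiocyte markers summed to 9.68 to 102 TPM in fresh hepatocytes and to 4790 to 20000 in HepOrgs. Of the 5 markers, 2 passed as higher in HM-Wnt at 1 week and 4 in each other HepOrg group, by the test described below. Of all genes, 24.9%, 26.1%, 21.5% and 19.7% passed as higher in HM-Wnt at 1 and 2 weeks and MM at 1 and 2 weeks. The paper reports no expression of ductal markers such as SOX9 and KRT19 in HepOrgs. It also describes cholangiocyte organoids that occasionally grew near HepOrgs and were picked out by hand. The sum here is over Krt19, Krt7, Epcam, Spp1 and Sox9 in bulk RNA of whole cultures, so it does not test that statement. Endothelial markers summed to 6.29 to 28.6 TPM in fresh hepatocytes against 0.0263 to 0.296 in HepOrgs, and immune markers to 19.0 to 143 against 0 to 61.7. The part of these marker shifts in the clock gene differences from fresh hepatocytes was not tested. In bulk samples, fewer cells that express a gene and less of its RNA per cell cannot be told apart.

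The loop acts through short sequence elements in promoters, and the promoters are shown for Per1 and Tef, which hold an E-box there, and Per2, which holds a D-box. Positions are on GRCm39. Each sequence is the 250 bases upstream of the start of the gene's canonical transcript, 5′ to 3′ along the gene, with capitals marking an E-box (CACGTG), a D-box (TTATGTAA or TTACGTAA), a cAMP response element (TGACGTCA) or the core of a REV-ERB element (TAGGTCA). Both strands were searched.
Per1 (chr11:68989018-68989267, + strand): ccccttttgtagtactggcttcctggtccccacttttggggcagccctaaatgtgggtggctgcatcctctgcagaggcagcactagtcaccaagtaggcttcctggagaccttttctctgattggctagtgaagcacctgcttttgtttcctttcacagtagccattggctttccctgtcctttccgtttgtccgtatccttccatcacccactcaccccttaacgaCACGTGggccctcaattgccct
Tef (chr15:81695365-81695614, + strand): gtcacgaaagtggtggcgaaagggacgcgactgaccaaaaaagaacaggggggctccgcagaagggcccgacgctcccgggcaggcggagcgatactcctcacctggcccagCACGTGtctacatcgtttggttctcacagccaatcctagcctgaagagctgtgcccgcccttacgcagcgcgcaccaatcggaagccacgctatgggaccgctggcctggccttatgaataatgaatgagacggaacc
Per2 (chr1:91387047-91387296, - strand): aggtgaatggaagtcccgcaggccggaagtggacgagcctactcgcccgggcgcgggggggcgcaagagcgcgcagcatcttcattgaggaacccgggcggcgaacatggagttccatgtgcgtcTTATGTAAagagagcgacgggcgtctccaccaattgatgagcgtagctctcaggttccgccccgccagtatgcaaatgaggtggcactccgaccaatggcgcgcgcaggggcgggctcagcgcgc
Counted from the start, the E-box of Per1 lay at -22 and that of Tef at -138, and the D-box of Per2 lay at -125. Of the genes not shown, Cry1 held 1 E-box at -29, Ciart held 3 at -100, -42 and -28, Dbp held a REV-ERB element core at -189 and Per3 held D-boxes at -187 and -140. Clock, Nr1d1 and Nr1d2 held none of these letters in windows running from 250 bases before to 50 after the start. Over the 21770 promoters searched in windows of that length, 7.81% held the E-box, 1.07% the D-box, 2.44% the cAMP element and 2.49% the REV-ERB element core. These matches are descriptions of sequence, not binding sites.

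In position, Nr1d1 (chromosome 11, 98658752 to 98666188, minus strand) shares 42.7% of its span with Thra, which is in the table too, and Dbp (chromosome 7, 45354512 to 45359627, plus strand) shares 14.4% with Sphk2. Clock (chromosome 5, 76342860 to 76452846, minus strand) shares 14.6% with Tmem165. Strand use in the counting is not stated, so reads in these stretches could belong to either gene. Per1 (chromosome 11, 68986035 to 69002300), Per2 (chromosome 1, 91343700 to 91387069), Cry1 (chromosome 10, 84967560 to 85021252), Nr1d2 (chromosome 14, 4230545 to 4266624), Tef (chromosome 15, 81686622 to 81711064) and Ciart (chromosome 3, 95785815 to 95789991) overlap no other gene of the table.

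The 3 libraries of fresh hepatocytes disagreed with each other on the clock genes far more than on most genes. Ciart, a repressor of the CLOCK and BMAL1 pair, read 77.3, 3.30 and 3.87 TPM in replicates 1, 2 and 3. Per1, a period gene, read 6.48, 0.288 and 0.409 TPM. Dbp read 102.5, 16.8 and 36.8 TPM. In each of these genes replicate 1 stood above the others, and on counts scaled to library size (CPM) it was 20.8 times the lowest library for Ciart, 19.5 times for Per1 and 5.49 times for Dbp.

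Per2 followed with 8.79, 2.30 and 2.97 TPM, and Tef with 24.7, 7.44 and 7.35 TPM. Nr1d2 read 21.9, 9.27 and 11.3 TPM, so in 6 of the 9 genes measured replicate 1 stood apart above both other libraries. The activator Clock went the other way, at 0.717, 1.32 and 1.68 TPM, and so did its partner Arntl, at 0.0549, 0.728 and 0.290 TPM (a 14.3-fold range in CPM). Nr1d1 was high in replicates 1 and 3 and lower in replicate 2, at 89.4, 48.8 and 85.0 TPM, and Cry1 hardly moved, at 1.27, 1.27 and 1.16 TPM. The immediate early gene Fos, which marks acute stimulation of cells, was also highest in replicate 1, at 1127 TPM against 92.8 and 129.

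**Figure D1:**
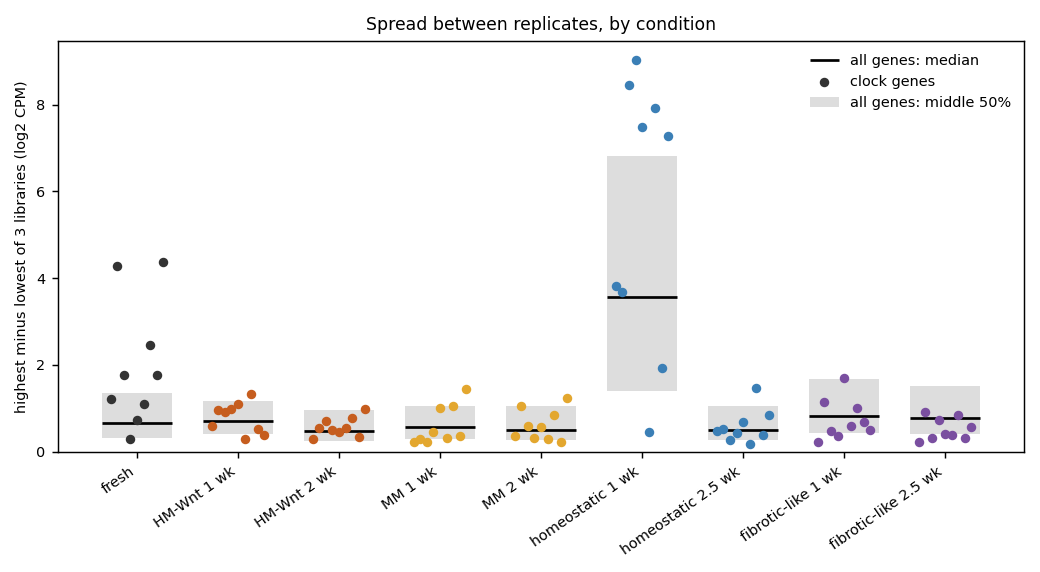
Log2 range between the highest and the lowest of the 3 libraries of each condition, for the 9 clock genes tested (points) beside all genes (line at the median, grey bar over the middle 50%). In fresh hepatocytes the clock genes had a median range of 1.76 against 0.655 for all genes, while the other conditions, homeostatic assembloids at 1 week apart, had clock gene medians of 0.353 to 0.906.

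Across the table, the median gene ranged over 0.655 log2 units between the fresh libraries, and the median clock gene over 1.76 (log2 CPM, that is counts scaled to library size, 9 clock genes). In the 7 other conditions outside homeostatic assembloids at 1 week, the clock genes' median range was 0.353 to 0.906, against 0.474 to 0.824 for all genes. Cultured libraries of 1 condition thus differed on the clock genes about as much as on other genes. In homeostatic assembloids at 1 week, which hold the sparse library, the ranges were 7.27 and 3.57.

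**Figure D2:**
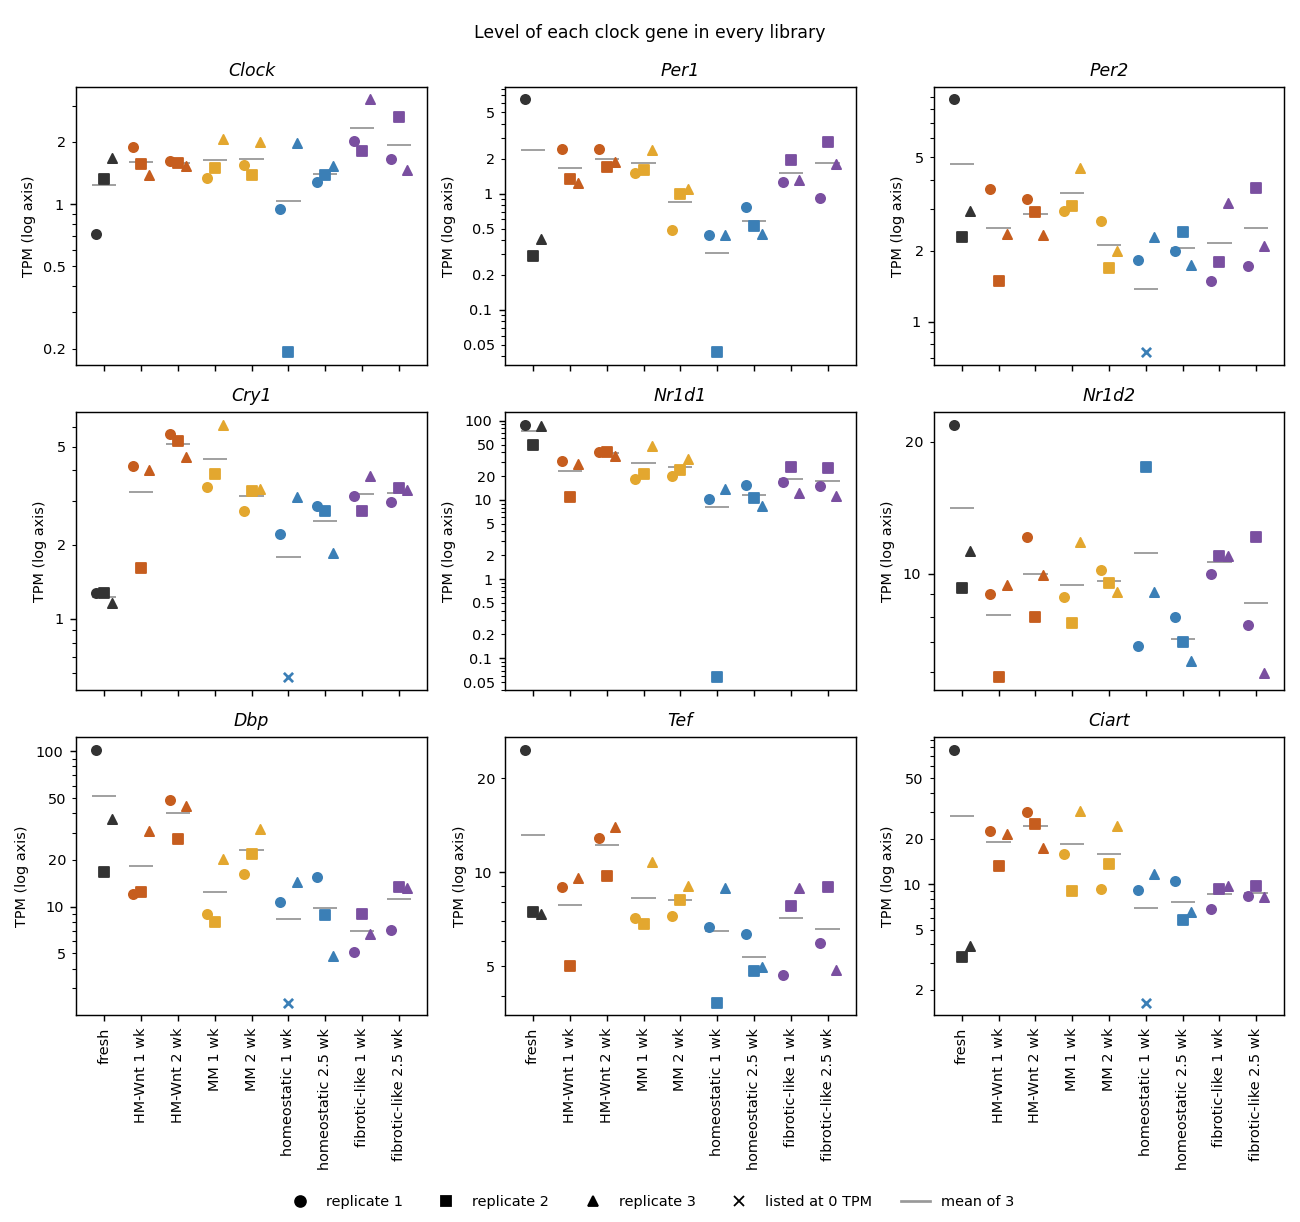
TPM of the clock genes in each of the 27 libraries by condition (log axis), 1 panel per gene, with a bar at the mean of each condition. Nr1d1 was higher in the 3 fresh libraries (48.8 to 89.4 TPM) than in every cultured library, while the HepOrg libraries lay within the range of the fresh ones for Per1 and Ciart.

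Each cultured condition was next compared with fresh hepatocytes. Several of these genes swing over the day and the hour of collection is not known. A difference of culture and a difference of hour therefore cannot be told apart here. The same limit holds for the comparisons between cultured conditions further on. Differences are log2 fold changes ± SE from edgeR's quasi-likelihood test, and a gene is said to rise or fall where its Benjamini-Hochberg adjusted p, over all genes tested, was under 0.05. All these comparisons share the same 3 fresh libraries and are not independent of each other. In HM-Wnt HepOrgs at 1 week, 1 clock gene rose and 5 fell of 9 tested, where 49.7% of all 13405 genes tested passed (24.9% higher, 24.8% lower). At 2 weeks 1 rose and 4 fell, beside 51.8% of all genes (26.1% higher, 25.7% lower). In MM HepOrgs 1 rose and 4 fell at 1 week, beside 42.8% (21.5% higher, 21.3% lower), and 1 rose and 5 fell at 2 weeks, beside 39.7% (19.7% higher, 20% lower). The median log2 fold change of the 9 genes was -1.29, -1.04, -1.20 and -1.35 in that order, while the median over all genes tested was 0.0234, 0.0324, 0.004 and -0.00881. So the share of clock genes that passed, 5 or 6 of 9, was near or above that of all genes, and more of those called were lower than higher. That excess of lower calls rested on fresh replicate 1: without it 3 rose and 3 fell, 3 rose and 3 fell, 3 rose and 4 fell, and 2 rose and 2 fell, beside 43.9%, 46.3%, 36.1% and 33% of all genes. Without fresh replicate 3, 1 rose and 5 fell, 1 rose and 4 fell, 1 rose and 5 fell, and 6 fell, beside 43.3%, 45.6%, 34.9% and 33.5% of all genes.

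Nr1d1, which encodes REV-ERBα, fell in all 4 HepOrg conditions. Against 89.4, 48.8 and 85.0 TPM in fresh hepatocytes, HM-Wnt HepOrgs gave 31.1, 11.0 and 28.1 TPM at 1 week and 40.8, 40.8 and 35.4 at 2 weeks. MM HepOrgs gave 18.3, 21.1 and 48.4 TPM at 1 week and 20.3, 24.0 and 33.1 at 2 weeks. All 12 HepOrg libraries lay below all 3 fresh ones. Nr1d1 fell by 2.24 ± 0.33 (adjusted p = 0.000113) and 1.73 ± 0.32 (0.000637) on the log2 scale in HM-Wnt, and by 2.03 ± 0.33 (0.000313) and 2.05 ± 0.33 (0.000316) in MM, at 1 and 2 weeks. These are falls of 4.72-, 3.32-, 4.08- and 4.13-fold. Leaving out fresh replicate 1 gave -2.09, -1.58, -1.87 and -1.88, all still past the threshold. With all 27 libraries in 1 fit the values were -2.20, -1.69, -1.999 and -2.05 and none passed (adjusted p = 0.0808, 0.174, 0.138 and 0.133), and on log2(TPM + 1) HM-Wnt at 2 weeks did not pass. The overlapping gene Thra passed the threshold in none of these comparisons.

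Nr1d2, which encodes the second REV-ERB, fell less. Its HepOrg libraries ranged from 5.82 to 12.1 TPM with a median of 9.26, and 6 of the 12 lay below all fresh libraries, whose values were 21.9, 9.27 and 11.3 TPM. The fall was 1.35 ± 0.26 (adjusted p = 0.000914) and 1.30 ± 0.26 (0.00103) in HM-Wnt at 1 and 2 weeks, and 1.20 ± 0.26 (0.00249) and 1.05 ± 0.26 (0.00606) in MM, on the log2 scale. Without fresh replicate 1 the values were -0.90, -0.87, -0.75 and -0.59, each past the threshold. On log2(TPM + 1) its differences were -0.67, -0.39, -0.46 and -0.42, and none of them passed.

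Cry1 encodes a cryptochrome, one of the proteins that block CLOCK and BMAL1. Of the 10 clock genes described here, Cry1 alone rose in HepOrgs with all libraries in the fit. Fresh hepatocytes gave 1.27, 1.27 and 1.16 TPM. HM-Wnt HepOrgs gave 4.19, 1.61 and 4.01 TPM at 1 week and 5.61, 5.26 and 4.56 at 2 weeks, and MM HepOrgs gave 3.42, 3.85 and 6.15 at 1 week and 2.74, 3.29 and 3.38 at 2 weeks. Every one of the 12 HepOrg libraries lay above every fresh library in TPM. On log2 CPM the lowest HepOrg library, HM-Wnt at 1 week replicate 2, was at 4.02 against a highest fresh value of 4.01. Cry1 rose by 0.82 ± 0.24 (adjusted p = 0.0118) and 1.25 ± 0.24 (0.000798) on the log2 scale in HM-Wnt, and by 1.20 ± 0.24 (0.00151) and 0.83 ± 0.24 (0.0139) in MM. With fresh replicate 1 left out it rose by 0.84, 1.26, 1.22 and 0.86. Without fresh replicate 3 the value in MM at 2 weeks was 0.79 with an adjusted p of 0.0505. Cry1 also missed the threshold in MM at 2 weeks without MM replicate 2 (0.74, 0.0505), in HM-Wnt at 1 week without HM-Wnt replicate 1 (0.66, 0.0541), and in all 4 comparisons with the 27 libraries in 1 fit (adjusted p from 0.377 to 0.682).

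Dbp, the PAR bZIP factor with the widest swing in liver, was lower in HepOrgs, by an amount that rested in part on fresh replicate 1. HM-Wnt HepOrgs gave 12.1, 12.4 and 30.6 TPM at 1 week and 48.8, 27.1 and 44.5 at 2 weeks, and MM HepOrgs gave 8.96, 7.996 and 20.4 at 1 week and 16.4, 21.7 and 31.9 at 2 weeks. Only 5 of these 12 libraries lay below all fresh libraries, which read 102.5, 16.8 and 36.8 TPM. Dbp fell by 2.03 ± 0.54 (adjusted p = 0.00675) in HM-Wnt at 1 week, and by 2.72 ± 0.55 (0.00159) and 1.66 ± 0.53 (0.0230) in MM at 1 and 2 weeks. In HM-Wnt at 2 weeks the difference was -1.18 ± 0.52 (0.0743). Without fresh replicate 1 these became -1.08 (0.0559), -1.76 (0.00689), -0.70 (0.233) and -0.24 (0.673), so that MM at 1 week alone stayed past the threshold. Dbp in MM at 2 weeks also missed it without MM replicate 1 (-1.48, 0.0811) or 2 (-1.67, 0.0615). With all 27 libraries in 1 fit, Dbp lost its calls in HM-Wnt at 1 week and MM at 1 and 2 weeks (adjusted p = 0.185, 0.0909 and 0.334). Sphk2, which overlaps part of Dbp, fell in all 4 comparisons, by 2.33, 1.96, 1.55 and 1.53 on the log2 scale in HM-Wnt at 1 and 2 weeks and MM at 1 and 2 weeks.

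Tef, the related PAR bZIP factor, fell in HM-Wnt by 1.29 ± 0.36 (adjusted p = 0.00927) at 1 week and by 0.92 ± 0.36 (0.0436) at 2 weeks, and by 1.30 ± 0.36 (0.0106) and 1.19 ± 0.36 (0.0175) in MM, although on log2(TPM + 1) its difference at 2 weeks in HM-Wnt was 0.10. Its HepOrg libraries ran from 5.02 to 14.0 TPM with a median of 9.02, inside the fresh range of 7.35 to 24.7 TPM for 8 of 12 libraries. Without fresh replicate 1, Tef passed the threshold in HM-Wnt at 1 week alone, at -0.48 (0.0484), and gave -0.13, -0.49 and -0.37 elsewhere. With the replicate number as a block, the value in HM-Wnt at 2 weeks was -0.83 with an adjusted p of 0.0523. That call of Tef was also lost without any 1 of the 3 HM-Wnt libraries (adjusted p from 0.0737 to 0.119), and the call in MM at 2 weeks without MM replicate 1 (-1.13, 0.0567) or 3 (-1.17, 0.0527). With all 27 libraries in 1 fit, Tef lost its 2-week calls in HM-Wnt and MM (adjusted p = 0.140 and 0.0633) and kept those at 1 week.

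In HM-Wnt HepOrgs the period gene Per2 stood at 3.64, 1.49 and 2.35 TPM at 1 week, then at 3.33, 2.92 and 2.33 at 2 weeks. In MM it stood at 2.96, 3.11 and 4.47 TPM at 1 week and at 2.67, 1.69 and 2.00 at 2 weeks. Of the 12 libraries, 9 lay within the fresh range of 2.30 to 8.79 TPM. Per2 fell by 1.46 ± 0.41 (adjusted p = 0.0104) and 1.498 ± 0.41 (0.00840) in HM-Wnt and by 1.63 ± 0.42 (0.00707) in MM at 2 weeks, and differed by -1.04 ± 0.41 (0.0560) in MM at 1 week. With fresh replicate 1 left out, no Per2 difference passed, at -0.64, -0.69, -0.81 and -0.22 for those same comparisons. With the replicate block, MM at 1 week gave -0.84 with an adjusted p of 0.0420. Without fresh replicate 3 Per2 in MM at 1 week also passed, at -1.27 (0.0363). With all 27 libraries in 1 fit, Per2 lost its calls in HM-Wnt at 1 and 2 weeks and MM at 2 weeks (adjusted p = 0.339, 0.311 and 0.310).

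Per1 and Ciart gave differences whose sign depended on 1 fresh library. Per1 in HM-Wnt HepOrgs read 2.41, 1.34 and 1.25 TPM at 1 week and 2.41, 1.71 and 1.87 at 2 weeks, and in MM 1.502, 1.60 and 2.40 at 1 week and 0.486, 0.984 and 1.09 at 2 weeks. Each of these 12 values lay between fresh replicate 1 (6.48 TPM) and the other fresh libraries (0.288 and 0.409 TPM). With all 3 fresh libraries Per1 differed by -1.03 ± 0.82 (adjusted p = 0.313), -1.04 ± 0.82 (0.304), -0.997 ± 0.82 (0.347) and -1.98 ± 0.85 (0.0796), in the order HM-Wnt at 1 week, at 2 weeks, MM at 1 week, at 2 weeks. Without fresh replicate 1 it rose in 3 of the 4, by 1.71 ± 0.40 (0.00460), 1.69 ± 0.40 (0.00456) and 1.75 ± 0.40 (0.00516), and gave 0.78 ± 0.39 (0.150) in MM at 2 weeks. Without fresh replicate 3 the MM value at 2 weeks was -2.45, with an adjusted p of 0.0278.

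Ciart behaved the same way. HM-Wnt HepOrgs gave 22.6, 13.2 and 21.6 TPM at 1 week and 30.0, 24.9 and 17.4 at 2 weeks, and MM HepOrgs gave 15.7, 9.07 and 30.6 at 1 week and 9.33, 13.6 and 24.3 at 2 weeks. All 12 lay between fresh replicate 1 (77.3 TPM) and the other fresh libraries (3.30 and 3.87 TPM). With all fresh libraries the differences were -1.08 ± 0.87, -0.99 ± 0.87, -1.26 ± 0.87 and -1.35 ± 0.88, with adjusted p of 0.321, 0.361, 0.264 and 0.240. Without replicate 1 Ciart rose in all 4, by 1.86 ± 0.46 (0.00595), 1.94 ± 0.46 (0.00429), 1.68 ± 0.45 (0.0121) and 1.60 ± 0.45 (0.0168).

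Clock, the activator, showed the smallest differences from fresh hepatocytes, at -0.16 ± 0.25 and -0.48 ± 0.25 in HM-Wnt and -0.25 ± 0.25 and -0.13 ± 0.25 in MM, none past the threshold (adjusted p from 0.128 to 0.722). Its 12 HepOrg libraries ran from 1.34 to 2.07 TPM. Leaving out fresh replicate 1, Clock fell in HM-Wnt at 2 weeks by 0.76 (0.00534) and in MM at 1 week by 0.51 (0.0473), while on log2(TPM + 1) its differences were 0.24, 0.22, 0.25 and 0.26. Arntl, its partner, read 0.732 to 1.65 TPM in the 12 HepOrg libraries, against 0.0549 to 0.728 in the fresh ones. The highest fresh value thus lay just under the lowest HepOrg one, and the median gene was also higher on log2(TPM + 1), by 0.396 to 0.675. Arntl did not pass the count test in any of the 4 comparisons.

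The scale mattered for several of these calls. On log2(TPM + 1), tested with limma, the median gene itself stood 0.396, 0.675, 0.466 and 0.398 above fresh hepatocytes in the 4 HepOrg comparisons. On that scale Nr1d1 was past the threshold in 3 of the 4 and Cry1 in all 4, and Dbp in MM at 1 week, and no other clock gene was called. Of all genes, 4160 were called higher and 1280 lower in HM-Wnt at 1 week on that scale, against 3341 and 3325 in the count test. At 2 weeks these were 5844 and 1074 against 3500 and 3442, and in MM they were 4492 and 911 against 2883 and 2855 at 1 week and 3816 and 899 against 2641 and 2680 at 2 weeks. Directions turned for Ciart in all 4 comparisons (0.74, 1.06, 0.57 and 0.41) and for Per1 in 3 of them (0.13, 0.32 and 0.23, but -0.38 in MM at 2 weeks).

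**Figure D3:**
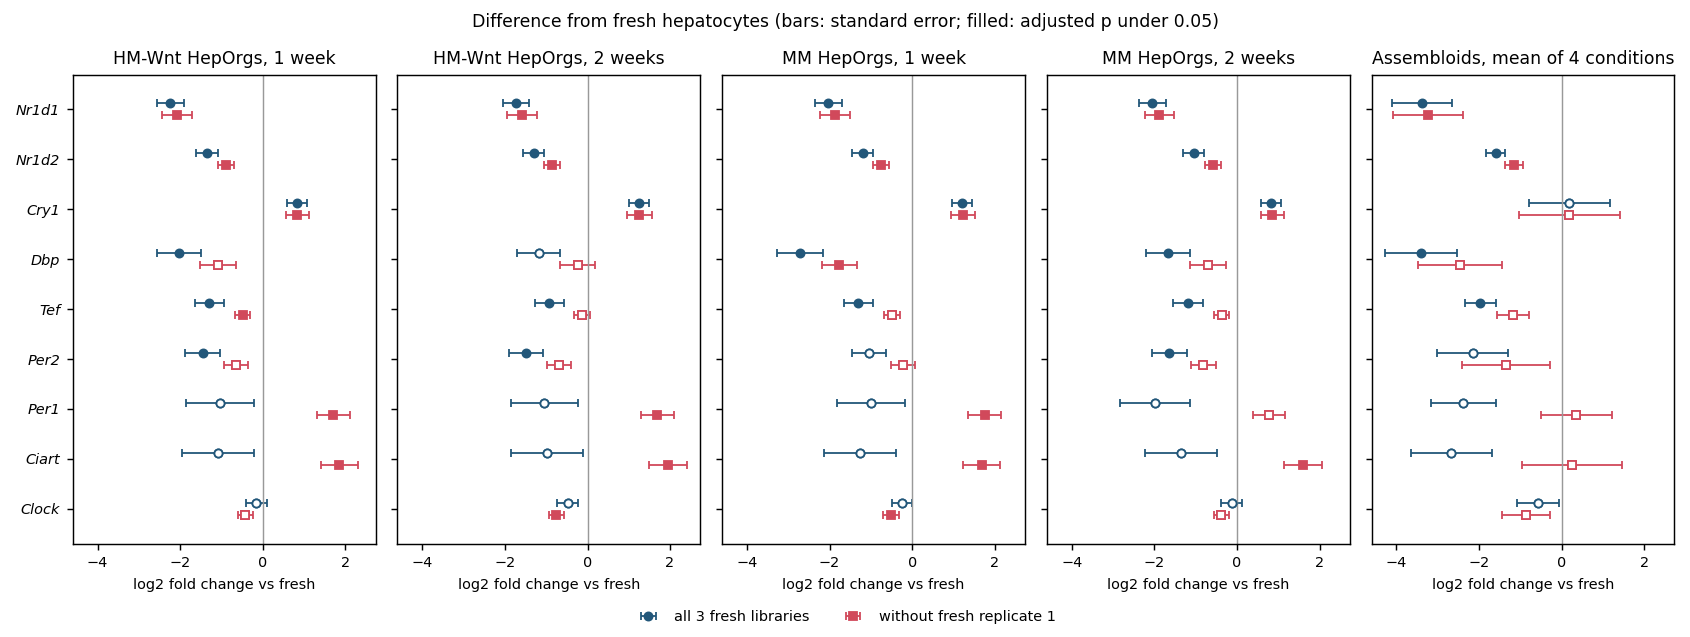
Log2 fold change ± SE of the clock genes against fresh hepatocytes in each of the 4 HepOrg conditions and the mean of the assembloids, with all 3 fresh libraries and without fresh replicate 1 (edgeR; hollow points did not pass an adjusted p of 0.05). Nr1d1 and Nr1d2 were lower and Cry1 was higher in HepOrgs in both fits, and Per1 and Ciart moved from below 0 to above 0 when replicate 1 was left out (in MM at 2 weeks Per1 went from -1.98 to 0.78).

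The other genes of the clock, 15 of 16 of which could be tested in HepOrgs, included calls in both directions. Against fresh hepatocytes, 2 rose and 2 fell in HM-Wnt at 1 week, 3 and 3 at 2 weeks, 2 and 3 in MM at 1 week, and 1 and 4 at 2 weeks, with medians of 0.0488, -0.0409, -0.0954 and -0.164. Of all genes tested, 49.7%, 51.8%, 42.8% and 39.7% passed in these comparisons, a share that the 15 genes did not exceed. Csnk1e, which encodes casein kinase 1 epsilon that phosphorylates PER proteins, rose in all 4, by 2.75 ± 0.24, 2.95 ± 0.25, 2.18 ± 0.24 and 2.00 ± 0.24. Hlf, the third PAR bZIP factor, fell in all 4, by 2.58 ± 0.31, 2.76 ± 0.31, 1.98 ± 0.30 and 1.48 ± 0.30. Nfil3, a repressor that competes with DBP, TEF and HLF at the D-box, rose in 3, by 1.01, 1.23 and 0.95, in HM-Wnt at 1 and 2 weeks and MM at 1 week. Bhlhe41, an E-box repressor, fell by 2.25, 2.94 and 3.04 in HM-Wnt at 2 weeks and MM at 1 and 2 weeks. Its fresh libraries ran from 0.177 to 3.19 TPM (median 0.923) and HepOrgs from 0.0954 to 1.08 (median 0.378). Cry2, the second cryptochrome, fell by 1.61 in HM-Wnt at 1 week and by 1.20 in MM at 2 weeks. Its fresh libraries ran from 4.97 to 15.7 TPM (median 5.58) and HepOrgs from 1.35 to 10.0 (median 6.06). For genes outside the 10, values without fresh replicate 1 are not given.

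Among 7 tested clock output genes of liver, 1 rose and 2 fell in each of the 4 HepOrg comparisons. Of all genes tested, 49.7%, 51.8%, 42.8% and 39.7% passed there. Gys2, the glycogen synthase of liver, fell by 3.47, 4.17, 1.99 and 1.74 on the log2 scale in HM-Wnt at 1 and 2 weeks and MM at 1 and 2 weeks. Por, the electron donor of cytochrome P450 enzymes, fell in 3 of them by 1.47, 1.18 and 1.76, and Tspan4, a tetraspanin, rose in all 4, by 1.00, 1.18, 1.14 and 1.22.

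Of 5 genes that glucocorticoids induce, 3 fell in HM-Wnt at 1 week, 4 at 2 weeks and 3 at each time in MM, and none rose, where 24.8%, 25.7%, 21.3% and 20% of all genes fell. Tat, tyrosine aminotransferase, fell (log2 fold changes of -5.07, -6.28, -5.79 and -4.41), and so did the kinase gene Sgk1 (-1.64, -1.56, -2.74 and -2.37) and Tsc22d3, which encodes GILZ (-1.69, -1.69, -1.35 and -1.39). Of 8 immediate early genes, 1 fell in HM-Wnt at each time, 3 fell in MM at 1 week and 6 at 2 weeks, and none rose. Fkbp5, a glucocorticoid-induced chaperone partner, passed in none of the 4 (0.16, 0.79, -0.37 and 0.10), and Zbtb16 fell in HM-Wnt at 2 weeks alone (-1.59). The part of either list in the clock gene differences was not tested.

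Assembloids were compared with fresh hepatocytes as the mean of their 4 conditions. No clock gene rose and 4 of 9 fell, where 19.4% of the 14489 genes tested passed (9.57% higher, 9.81% lower). The median clock gene stood at -2.15 against 0.0421 for all genes. Dbp in assembloids ran from 0 to 15.6 TPM over 12 libraries with a median of 8.93, and all 12 lay below the lowest fresh library (16.8 TPM). It fell by 3.41 ± 0.86 (adjusted p = 0.0155), a 10.6-fold difference, but without fresh replicate 1 it gave -2.46 and did not pass (0.165). Nr1d1 ran from 0.0573 to 26.4 TPM with a median of 13.1, again below every fresh library, and fell by 3.38 ± 0.72 (0.00616), or 10.4-fold.

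Nr1d2 fell by 1.59 ± 0.23 (adjusted p = 0.000594) and Tef by 1.97 ± 0.37 (0.00332) in assembloids. Per1, Ciart and Per2 differed by -2.38 ± 0.79 (0.0515), -2.68 ± 0.98 (0.0769) and -2.15 ± 0.86 (0.103), Clock by -0.57 ± 0.50 (0.500), and Cry1 by 0.19 ± 0.99 (0.948). In TPM, 11 of 12 assembloid libraries had more Cry1 than any fresh one, but the median gene also stood 0.63 above fresh on log2(TPM + 1). Without the sparse assembloid library 7 clock genes fell, beside 45.6% of all genes, with Dbp at -3.26, Nr1d1 at -3.23, Ciart at -2.53, Per1 at -2.24, Per2 at -2.01, Tef at -1.87 and Nr1d2 at -1.62. Leaving out fresh replicate 1, only Nr1d1 (-3.24, adjusted p = 0.0313) and Nr1d2 (-1.16, 0.00848) fell, beside 10% of all genes, and Per1 and Ciart stood at 0.36 and 0.25. Without fresh replicate 3, 5 fell, beside 9.59%, with Per1 now among them at -2.88 (0.0485).

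Beside the clock genes in assembloids, Csnk1e rose by 3.11 and Bhlhe41 fell by 2.94 among 16 other clock genes. Bhlhe41 ran from 0.177 to 3.19 TPM in fresh hepatocytes and from 0 to 2.15 in assembloids. Of all genes tested, 19.4% passed in this comparison (9.57% higher, 9.81% lower). Gys2 and Por fell by 2.47 and 2.24 among 7 outputs, and Tat and Tsc22d3 fell by 5.52 and 1.89 among 5 glucocorticoid-induced genes. All 8 immediate early genes fell with all 3 fresh libraries in the fit, Fosb by 6.58 and Fos by 4.12 among them. Values without fresh replicate 1 are not given for these genes, and fresh libraries differed widely on some. Median TPM in fresh hepatocytes and assembloids was 129 and 30.5 for Fos, but 367 and 360 for Junb. For Atf3 the medians were 0.726 and 1.21, with a highest fresh value of 24.0. Mesenchymal markers summed to 19.7 to 2180 TPM in assembloids and 2.49 to 16.1 in fresh hepatocytes.

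The medium was tested among the 12 HepOrg libraries alone, which asks whether clock gene levels differed between HM-Wnt and MM. No clock gene passed at 1 week, 2 weeks or over both times, where 2.98%, 11.5% and 21.5% of 12989 genes passed. Per1 came nearest at 2 weeks, with 0.486, 0.984 and 1.09 TPM in MM against 2.41, 1.71 and 1.87 in HM-Wnt. The MM libraries all lay below the HM-Wnt ones, and the difference was -0.92 ± 0.33 (adjusted p = 0.0948). On log2(TPM + 1) it was -0.70 and passed, with an adjusted p of 0.0438 by limma, where the median gene stood at -0.264.

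Dbp differed by -0.59 ± 0.26 between MM and HM-Wnt over both times, which did not pass without a block (adjusted p = 0.130). HepOrg libraries with the same replicate number deviated together, and with the number as a block Dbp fell by 0.59 ± 0.20 with an adjusted p of 0.0460, where 28.9% of all genes passed. In blocked fits of each time no clock gene passed, beside 9.48% of all genes at 1 week and 19.6% at 2 weeks. The change of the medium effect from 1 to 2 weeks passed for no gene of 12989 in edgeR (951 at an unadjusted p under 0.05), and the lowest adjusted p among the clock genes was 0.673.

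Of 15 other clock genes tested, 1 rose and none fell in MM at 1 week, and 2 rose and 2 fell at 2 weeks, where 2.98% and 11.5% of all genes passed. Hlf rose by 1.29 ± 0.26 at 2 weeks and Csnk1e fell by 0.94 ± 0.23, both towards their fresh levels, and Fbxl21, an F-box protein of cryptochrome turnover, fell by 1.495 ± 0.33. Among clock outputs, Gys2 and Wee1, a kinase that holds back mitosis, rose by 2.44 and 0.92 at 2 weeks. Over both times 5 of 8 immediate early genes fell in MM, with Fosb at -3.02, Fos at -2.35 and Egr1 at -1.85, beside 21.5% of all genes passing.

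The 2-week and 1-week HepOrgs were compared over both media, and Dbp gave the value described here. It stood at 7.996 to 30.6 TPM over the 1-week libraries and 16.4 to 48.8 over the 2-week ones, and the ranges overlapped. The difference over both media was 0.97 ± 0.26 (adjusted p = 0.176), and with the block 1.04 ± 0.20 (0.0657, where 0.0539% of all genes passed). No clock gene passed, and 1 gene of 12989 (0.0077%) did in edgeR, with 1539 at an unadjusted p under 0.05. DESeq2 called 411 genes, Dbp among them at 0.96 with an adjusted p of 0.0230.

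Fibrotic-like and homeostatic assembloids differ in the number of mesenchymal cells at the start. With all 12 assembloid libraries no clock gene passed at 1 week, at 2.5 weeks or over both, and 0% of 14253 genes did by edgeR, with 2012, 944 and 2678 genes at an unadjusted p under 0.05 and 791, 287 and 1724 called by DESeq2. This count turned on the sparse homeostatic library, in which Per2, Cry1, Dbp and Ciart were listed at 0. Its other clock genes read 0.0573 TPM for Nr1d1, 0.0431 for Per1, 0.192 for Clock, 3.82 for Tef and 17.5 for Nr1d2, the last the highest Nr1d2 value of any cultured library.

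At 1 week, Dbp read 10.7, 0 and 14.5 TPM in homeostatic and 5.15, 9.02 and 6.70 in fibrotic-like assembloids. Tef read 6.68, 3.82 and 8.89 against 4.67, 7.79 and 8.90 TPM, and Per2 1.83, 0 and 2.28 against 1.48, 1.79 and 3.19 TPM. With the sparse library in, the differences were -1.25 ± 1.42 for Dbp, -0.78 ± 0.50 for Tef and -0.45 ± 1.36 for Per2 (adjusted p = 0.745, 0.521 and 0.916). Without it Dbp fell by 1.84 ± 0.47 (0.0474), Tef by 1.17 ± 0.23 (0.0432) and Per2 by 1.03 ± 0.23 (0.0442), beside 8.01% of all genes. These 3 directions turned on log2(TPM + 1) with all libraries, to 0.46, 0.14 and 0.55, where the median gene stood at 0.867.

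Over both times without the sparse library, 5 clock genes were lower in fibrotic-like assembloids, beside 29.7% of all genes. Dbp fell by 1.09 ± 0.32 (adjusted p = 0.0310), Ciart by 0.83 ± 0.24 (0.0302), Tef by 0.75 ± 0.16 (0.0129), Per2 by 0.69 ± 0.15 (0.0142) and Nr1d2 by 0.47 ± 0.14 (0.0309). With all libraries these were -0.80, -0.54, -0.55, -0.40 and -0.53, with adjusted p of 0.763, 0.856, 0.454, 0.903 and 0.187. On log2(TPM + 1) with all libraries each had a value above 0, from 0.12 to 0.57, where the median gene stood at 0.657. Per1 differed in the other direction from these 5 genes, in the fits with and without the sparse library. In TPM its 6 homeostatic libraries, at 0.0431 to 0.761, all lay below its 6 fibrotic-like ones, at 0.922 to 2.77. On log2 CPM the 2 ranges overlapped, at -3.33 to 0.810 and 0.237 to 1.81. The difference over both times was 1.16 ± 0.66 by edgeR (adjusted p = 0.395), 0.89 ± 0.35 without the sparse library (0.0807), and 0.87 on log2(TPM + 1), where it passed by limma (0.0242) and the median gene stood at 0.657. Mesenchymal markers summed to 19.7 to 336 TPM in homeostatic assembloids at 1 week, 37.2 to 53.1 at 2.5 weeks, and 155 to 2180 and 314 to 1990 in fibrotic-like ones, and their part in these differences was not tested.

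**Figure D4:**
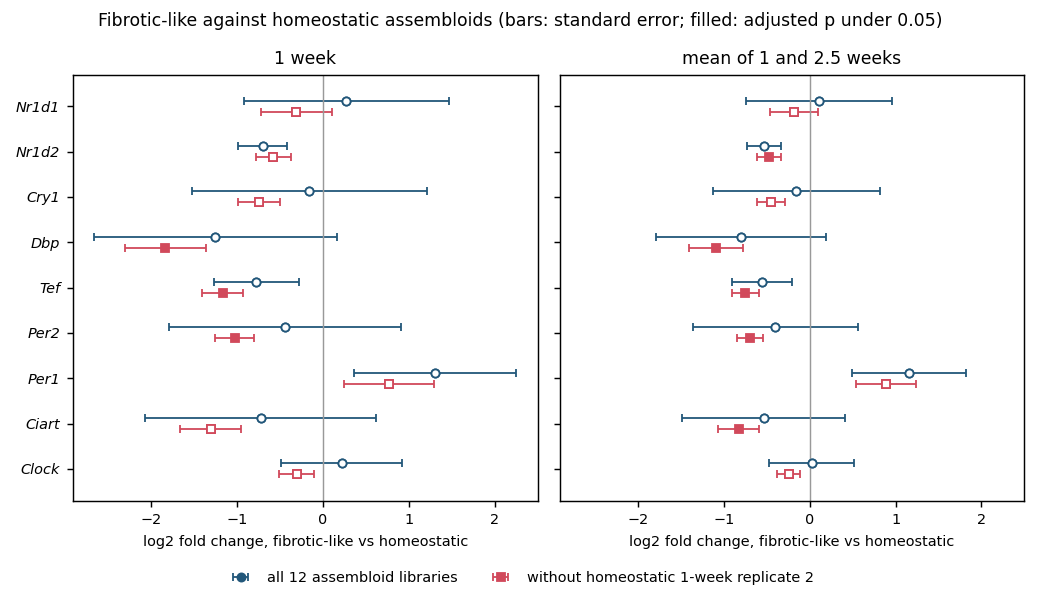
Log2 fold change ± SE of the clock genes between fibrotic-like and homeostatic assembloids at 1 week (left) and over both times (right), with all 12 libraries and without the sparse homeostatic library (edgeR; hollow points did not pass an adjusted p of 0.05). With all libraries no gene passed, and without the sparse library Dbp, Ciart, Tef, Per2 and Nr1d2 fell over both times, by 0.47 to 1.09 on the log2 scale (on log2(TPM + 1) with all libraries their values were above 0).

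Assembloids at 2.5 weeks against 1 week gave no clock gene past the threshold, with or without the sparse library, where 0% of all genes passed in edgeR (598 at an unadjusted p under 0.05 with all libraries, 0 by DESeq2). The change of the fibrotic-like difference from 1 to 2.5 weeks passed for no gene of 14253 in edgeR, with 278 at an unadjusted p under 0.05.

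Ordered by mean TPM, Nr1d1 ran from fresh hepatocytes (74.4 ± 22.3 SD, n = 3) through HM-Wnt HepOrgs at 2 weeks (39.0 ± 3.15), MM at 1 week (29.3 ± 16.6), MM at 2 weeks (25.8 ± 6.56) and HM-Wnt at 1 week (23.4 ± 10.8). Below these came fibrotic-like assembloids at 1 week (18.5 ± 7.18) and 2.5 weeks (17.2 ± 7.45) and homeostatic ones at 2.5 weeks (11.5 ± 3.67) and 1 week (8.06 ± 7.18). The last place rested on the sparse library (0.0573 TPM), as the others at 1 week read 10.2 and 13.9, within the 8.32 to 15.5 at 2.5 weeks. Fresh hepatocytes stood clear of the next condition, and every later neighbour overlapped with the one before it. For Cry1 the order began at HM-Wnt HepOrgs at 2 weeks (5.14 ± 0.534) and ended at fresh hepatocytes (1.23 ± 0.0648), with every neighbouring pair overlapping. Fresh hepatocytes overlapped their neighbour, homeostatic assembloids at 1 week, through the sparse library alone (0 TPM, the others 2.21 and 3.11). Per1 was lowest in homeostatic assembloids, at 0.306 ± 0.228 TPM at 1 week and 0.578 ± 0.163 at 2.5 weeks, against 1.51 ± 0.392 and 1.83 ± 0.923 in fibrotic-like ones.

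Within HepOrgs, some pairs of clock genes varied together between libraries of 1 condition and others did not. Over the 12 libraries, taken as deviations from their condition's mean on the log2 scale, Cry1 and Nr1d1 had a Pearson correlation of 0.908, Ciart and Nr1d1 of 0.719, Tef and Cry1 of 0.715, Tef and Nr1d1 of 0.714, and Dbp and Tef of 0.648. Clock had values of -0.367 with Tef, -0.256 with Nr1d2 and -0.207 with Dbp, Per2 had -0.286 with Dbp, and Per1 had 0.0784 with Dbp and 0.0844 with Nr1d2. Dbp and Arntl ran opposite, at -0.544. Libraries share depth and composition across genes, so these are descriptions and carry no test.

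The genes whose log2 level was most like that of Dbp over the 27 libraries were Fhip2a (Pearson correlation 0.949), Mpst (0.948), Slc25a33 (0.947), Slc16a10 (0.947) and Selenoo (0.946). Without the sparse library the 5 were Ipmk (0.911), Brap (0.895), Klf9 (0.882), Ubr2 (0.881) and Fhip2a (0.869), so 1 of 5 was shared. For deviations from the condition means they were Gadd45a (0.970), Cebpd (0.970), Wee1 (0.966), Zmym6 (0.958) and Katnal1 (0.958), and without the sparse library Gadd45a (0.813), Cebpd (0.795), Wee1 (0.766), Klf9 (0.748) and Zcchc3 (0.730), with 3 of 5 shared.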

How the data were processed

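Bulk RNA was measured in 27 libraries of 9 groups, mapped from the sample labels. The 10 further libraries of the table were not used here. Per the labels and the study's methods, RNA was amplified and tagmented, paired-end reads were aligned with STAR to GRCm39, and the authors deposited featureCounts read counts per gene and TPM. The deposited gene lengths are close to whole gene spans, so TPM was compared between libraries and not between genes.

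Counts were tested in R 4.3.3 with edgeR 4.0.16 (TMM, genes kept by filterByExpr at min.count 10 and min.total.count 15, quasi-likelihood test, Benjamini-Hochberg adjusted p threshold of 0.05). HepOrgs with fresh hepatocytes, HepOrgs alone, assembloids alone and assembloids with fresh hepatocytes were fitted separately. Alternatives were DESeq2 1.42.0, RLE scaling, no filter, 1 fit of all 27 libraries, a replicate block, limma 3.58.1 on log2(TPM + 1), and leaving out each library in turn. The steps were tested on simulated data. The members and lists were chosen with earlier results of these data known. Named genes were the members, and, as examples, other clock genes past the threshold (1 item is not reported here) and up to 3 genes past it with the largest changes in each other list. Fkbp5 was named after its values were seen.

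Replicate numbers come from the sample titles. Deviations from group means correlated above 0.1 in 18 of 18 same-numbered pairs of HepOrg groups (0.127 to 0.503, median 0.207) and in 2 of 36 differently numbered pairs, so blocked values are given beside the medium results. Transcript starts came from GENCODE vM39. No 2 libraries of the same condition agreed within sampling noise (lowest chi-square per degree of freedom 86.3), and pairs across conditions were not checked. Counting error is small at these depths, and n = 3 limits the precision.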

Additional observations from a re-analysis of the deposited data

How the results depend on the processing

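On log2(TPM + 1) with limma, directions turned against fresh hepatocytes for Per1 (0.13, 0.32 and 0.23 in HM-Wnt at 1 and 2 weeks and MM at 1 week), Ciart (0.74, 1.06, 0.57 and 0.41 in the 4 HepOrg groups), Clock (0.24, 0.22, 0.25 and 0.26 there and 0.22 in assembloids) and Tef (0.10 in HM-Wnt at 2 weeks). Between fibrotic-like and homeostatic assembloids they turned for Tef, Per2 and Dbp at 1 week (0.14, 0.55 and 0.46) and for Nr1d2, Tef, Ciart, Per2 and Dbp over both times (0.12, 0.18, 0.57, 0.36 and 0.36). The median gene moved up on that scale, and the cause was not tested. Clock genes called by limma numbered 2, 1, 3 and 2 in HepOrgs and 2 in assembloids against fresh hepatocytes, 1 between media at 2 weeks and 1 between assembloids over both times. With all 27 libraries in 1 fit the numbers against fresh hepatocytes were 2, 1, 2, 1 and 7. The replicate block called 1 between media over both times and DESeq2 called 1 for time in HepOrgs.

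Leaving out 1 library at a time gave 5 to 6, 4 to 6, 5 to 7, 4 to 7 and 2 to 7 clock genes against fresh hepatocytes, 0 to 3 between assembloids at 1 week, 0 to 5 over both times and 0 in every other comparison. Log2 fold changes of Ciart then ran from -1.60 to 1.86, -1.51 to 1.94, -1.79 to 1.68, -1.86 to 1.60 and -3.19 to 0.25, and those of Per1 from -1.55 to 1.71, -1.56 to 1.69, -1.52 to 1.75, -2.48 to 0.78 and -2.90 to 0.36. Clock ran from -0.42 to 0.097 in HM-Wnt at 1 week, -0.51 to 0.012 in MM at 1 week and -0.38 to 0.14 at 2 weeks, and Per2 from -1.03 to 0.17 between assembloids at 1 week. Of the 5 genes most like Dbp in level and in deviation, 1 and 2 were shared with Spearman correlation, 2 and 3 on log2(TPM + 1), and 1 and 3 without the sparse library, an alternative chosen after seeing the data.

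The replicate block lost the call of Tef in HM-Wnt at 2 weeks (-0.83, adjusted p = 0.0523) and gained that of Per2 in MM at 1 week (-0.84, adjusted p = 0.0420). Same-numbered libraries correlated above 0.1 in 19 of 30 pairs of groups with fresh hepatocytes added to HepOrgs, against 7 of 60 differently numbered pairs, and in 6 of 18 for assembloids and 7 of 30 for assembloids with fresh hepatocytes, where the libraries share only a number. The size of 3 libraries per group limits every comparison, and the sparse library adds to the spread of all assembloid fits that hold it.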
